A study of Mus musculus with 12 samples.

Results

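Cycloheximide (CHX), a drug that stalls ribosomes and so blocks the making of new protein, was added to mouse spermatogonial stem cells (mSSC) together with retinoic acid (RA), and their RNA was set against that of cells given RA alone. The comparison holds 4 of the 12 RNA-seq libraries of the series, chosen by their labelled treatment, and 12292 of 22549 genes, those whose FPKM averaged at least 1 over the 4 libraries. FPKM counts sequenced fragments relative to transcript length and to all mapped fragments, so it is a level corrected for gene length.

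The cells came from the testes of wild-type male DBA/C57 F1 mice at 5 to 7 days of age and were cultured overnight on dishes coated with laminin. The group with CHX received CHX at 0.25 mg/ml on top of 100 nM RA, the RA group received 100 nM RA, and the vehicle group received neither, each for 24 h. Each group held 2 libraries that the design text calls biological replicates, and every value below is from those 2. All 3 groups were cultured mSSC, and CHX without RA was not among the groups, so an effect of CHX by itself cannot be told apart from one that needs RA. In such bulk samples fewer cells of a type and less RNA per cell cannot be told apart.

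Retinoic acid enters cells, binds retinoic acid receptors paired with retinoid X receptors on DNA, and drives spermatogonia out of the stem cell state and towards meiosis. A gene that the receptors switch on directly can respond without new protein, whereas a gene further down the chain needs a protein to be made first, and treatment with CHX is a common way to separate these classes. CHX is also known to lower the supply of short-lived proteins and to slow the decay of mRNAs whose destruction is tied to translation.

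The deposited FPKM summed to 481355 and 490859 in the RA and CHX libraries, 490390 and 476555 in the RA libraries and 519763 and 540064 in the vehicle libraries. Between 12034 and 12341 genes reached 1 FPKM in the 6 libraries. Across genes, which are not independent of each other, the 2 libraries of a group had r = 0.986 with RA and CHX and 0.989 with RA on the log2 scale. All 10 germ cell markers passed the filter. Their summed level was 1571 and 1623 FPKM with RA and CHX, 1241 and 1233 FPKM with RA, and 1411 and 1426 FPKM with vehicle. The markers split in the test described below. Of the 10, 7 were called higher and 3 lower with CHX, where 35.7% and 42.0% of all genes were. At least 2-fold changes were called for 1 of the higher and 2 of the lower.

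Of the 12292 genes, 9540 were called different (77.6%), 4383 higher with RA and CHX than with RA (35.7%) and 5157 lower (42.0%), at a limma adjusted p under 0.05. The groups did not overlap for 10957 genes (89.1%). Most of these differences were small, with a median absolute log2 fold change of 0.35 over all genes, so a size rule was set beside the p. At least 2-fold changes were called for 1199 genes (9.75%), 345 of them higher (2.81%) and 854 lower (6.95%). The excess of lower genes over all calls depended on the scaling: 5038 genes were higher and 4485 lower after quantile normalization, and 4773 and 4766 with median-ratio scaling. The 2-fold calls after quantile normalization were 467 higher and 641 lower. The median log2 fold change of all genes was -0.04, against 0.03 after quantile normalization. Counts in each gene list below are to be read against the 35.7% of all genes called higher and 42.0% called lower. When the spread was estimated from all 12 libraries of the series, called the 12-library fit below, 2594 genes were higher and 3231 lower, and the counts in several gene lists dropped with it. At the larger sizes, 27 genes were called at least 4-fold higher and 89 at least 4-fold lower, and 10 and 14 at least 8-fold. These fold changes are differences of log2(FPKM + 1), which understate the change of genes near 0. With 2 libraries against 2 an exact permutation test cannot go below p = 0.333, so the calls rest on a spread shared across genes and measure only the spread between these samples.

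**Figure D1:**
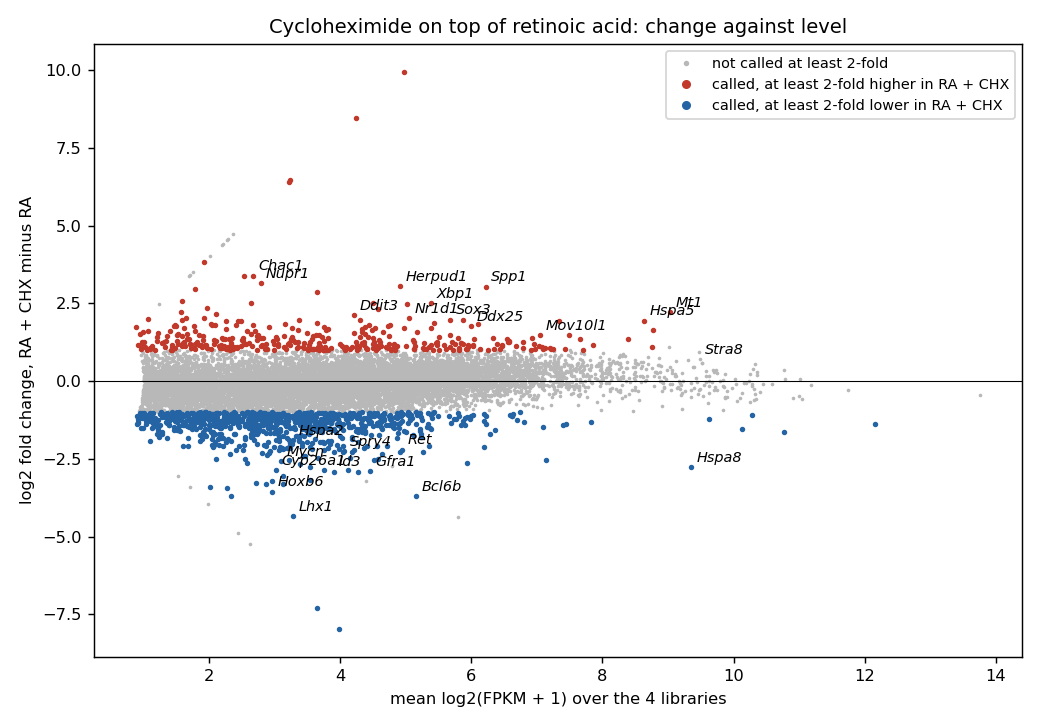
Log2 fold change of RA and CHX over RA (vertical axis) against mean log2(FPKM + 1) over the 4 libraries (horizontal axis), 1 point per gene. Red points are the 345 genes called at least 2-fold higher, blue points the 854 called at least 2-fold lower, and grey points the rest. Of the labelled genes, Chac1, Nupr1, Herpud1 and Spp1 stand highest and Lhx1 and Bcl6b lowest. Il1rl1 (3.37), which is not labelled, lies between Chac1 and Nupr1. Unlabelled points above Chac1 or below Lhx1 are outside the naming rule. That rule leaves out small RNA genes, unnamed gene models, uncalled genes, genes averaging under 5 FPKM and genes whose groups overlap.

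Among the retinoic acid genes, Stra8 stayed far above its vehicle level under CHX while Cyp26a1 was far lower than with RA alone. Stra8, a gatekeeper of meiotic entry, stood at 928 and 904 FPKM with RA and CHX, 537 and 584 FPKM with RA, and 22.9 and 24.4 FPKM with vehicle. It was higher with RA and CHX than with RA (log2 fold change 0.71 ± 0.05 SE, adjusted p = 1.02e-05), although the call was lost when the spread came from all 12 libraries (adjusted p = 0.198). Both RA and CHX libraries lay above both RA libraries, and all 4 lay far above the vehicle ones.

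Cyp26a1, the enzyme that clears RA from the cell, was at 2.1 and 1.92 FPKM with RA and CHX, 21.1 and 20.6 FPKM with RA, and 0.53 and 0.557 FPKM with vehicle. It fell by 2.86 ± 0.06 on the log2 scale (adjusted p = 1.32e-07), to 0.0964 of its level with RA. The RA and CHX libraries thus lay between the vehicle and the RA libraries. Rarb, which encodes the retinoic acid receptor beta, was at 1.88 and 1.85 FPKM with RA and CHX, 1.97 and 2.07 FPKM with RA, and 0.0439 and 0.055 FPKM with vehicle. Its log2 difference from RA was -0.08 ± 0.07 (adjusted p = 0.348).

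The promoters of both genes held a retinoic acid receptor repeat. They are shown because both genes were higher with RA than with vehicle, by 3.82 and 1.52 on the log2 scale, and differed in their level with CHX. The motif searched was a direct repeat, GTTCA and again GTTCA with 6 bases between them and 1 base of any kind before, on both strands of the 250 bases before each RefSeq gene start (assembly GRCm38.p6). It occurred at 22 of 32851 starts (0.067%) and in 4 of the 9797 tested genes that the table holds. Capitals mark the match. In Cyp26a1 (chr19:37697558-37697807, plus strand) it ran from 32 to 16 bases before the start, on the opposite strand, and in Rarb (chr14:16575477-16575726, minus strand) from 53 to 37 bases before the start.
Cyp26a1: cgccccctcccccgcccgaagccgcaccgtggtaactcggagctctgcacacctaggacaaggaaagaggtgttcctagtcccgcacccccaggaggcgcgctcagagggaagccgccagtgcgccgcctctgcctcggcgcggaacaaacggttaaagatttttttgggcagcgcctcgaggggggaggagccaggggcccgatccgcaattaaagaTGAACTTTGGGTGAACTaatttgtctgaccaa
Rarb: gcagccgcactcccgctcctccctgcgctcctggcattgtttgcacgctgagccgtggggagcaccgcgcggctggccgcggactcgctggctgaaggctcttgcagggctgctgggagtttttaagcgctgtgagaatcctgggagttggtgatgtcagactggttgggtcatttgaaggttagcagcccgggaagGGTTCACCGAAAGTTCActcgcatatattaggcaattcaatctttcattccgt

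Other genes of RA handling split in the same comparison. Dhrs3, which reduces retinal and so limits the making of RA, was at 3.69 and 3.45 FPKM with RA and CHX, 13.4 and 14.3 FPKM with RA, and 9.44 and 9.91 FPKM with vehicle, and fell by 1.70 ± 0.06 on the log2 scale (adjusted p = 5.01e-07). Both RA and CHX libraries were below the vehicle libraries as well. Crabp2, a carrier of RA to its receptors, fell by 0.95 ± 0.11 (adjusted p = 0.000174) and Crabp1, a related binding protein, rose by 0.31 ± 0.04 (adjusted p = 0.000159, and 0.461 in the fit of all 12 libraries). Cyp26b1, another clearing enzyme, was at 2.9 and 3.33 FPKM with RA and CHX, 1.44 and 1.75 FPKM with RA, and 0.087 and 0.114 FPKM with vehicle, a change over RA in the opposite direction to that of Cyp26a1 (log2 fold change 0.66, adjusted p = 0.000373). The retinoid X receptor gene Rxrb rose by 0.70 and Rxrg fell by 1.91, to 0.153 and 0.0572 FPKM with RA and CHX, against 3.63 and 2.72 FPKM with RA. The receptor genes Rara and Rarg did not pass the test, at log2 differences of 0.00 and 0.09. In all, 5 of the 16 tested members of the RA response list rose and 4 fell, where 35.7% and 42.0% of all genes did, with a median of 0.03 against -0.04 for all genes. The 12-library fit called 2 higher and 4 lower.

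Rec8, a meiotic cohesin that RA raises, was at 39.5 and 38.4 FPKM with RA and CHX, 36.8 and 38.3 FPKM with RA, and 8.14 and 9.19 FPKM with vehicle (log2 difference from RA 0.05, adjusted p = 0.412). Kit, the receptor that marks differentiating spermatogonia, was at 17.7 and 17.6 FPKM with RA and CHX, 13.0 and 14.6 FPKM with RA, and 3.19 and 3.87 FPKM with vehicle. It rose by 0.33 ± 0.08 (adjusted p = 0.0075), a call lost without the first RA library (adjusted p = 0.0513) and in the fit of all 12 libraries (0.421). Comparisons with vehicle share the RA libraries with the main one, and only the values are set side by side here.

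**Figure D2:**
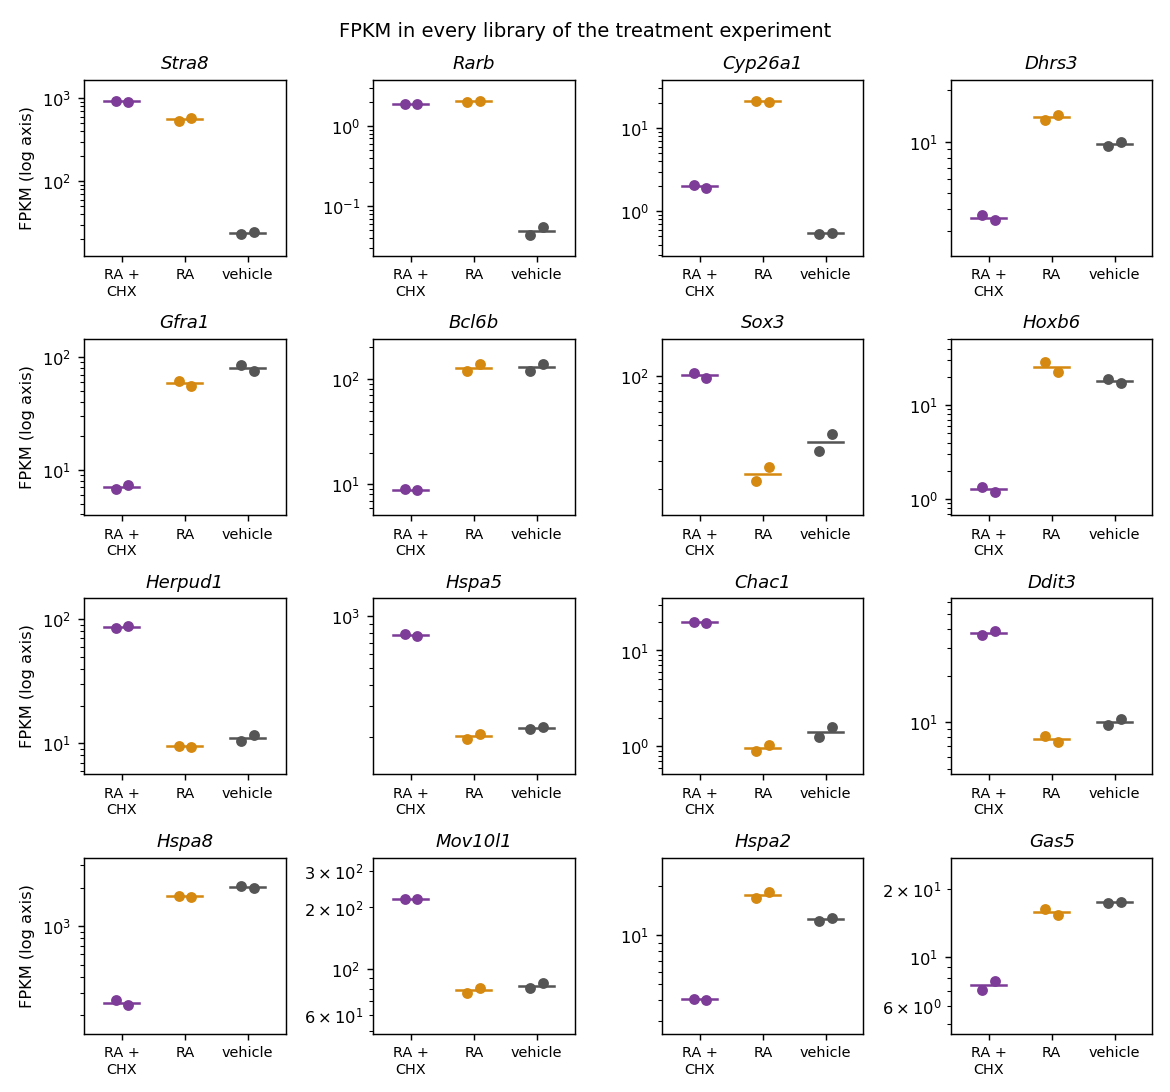
FPKM on a log axis of 16 genes in the 2 libraries (points) and the mean (line) of each group, ordered RA and CHX, RA, vehicle. Rarb lay at about one level in all 4 libraries given RA, Cyp26a1 and Dhrs3 were lower with CHX, the stem cell genes Gfra1 and Bcl6b were lower and Sox3 higher, and Herpud1, Hspa5, Chac1 and Ddit3 were higher with CHX than in both other groups.

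Stem and progenitor genes were mostly lower with CHX. Some of these genes keep spermatogonial stem cells self-renewing, while the list also holds progenitor and general germ cell genes. Many of the stem cell genes answer to GDNF, a growth factor that acts through the receptor pair GFRA1 and RET. Of 30 tested members, 21 fell and 8 rose, where 42.0% and 35.7% of all genes did, with a median log2 fold change of -1.13. At least 2-fold changes were called for 17 lower and 1 higher (6.95% and 2.81% of all genes). The 12-library fit called 16 lower and 2 higher. Gfra1 was at 6.73 and 7.28 FPKM with RA and CHX, 62 and 55.1 FPKM with RA, and 85 and 75.3 FPKM with vehicle. It fell by 2.89 ± 0.08 (adjusted p = 2.27e-07). The RA and CHX libraries were well below all the others, while the RA and vehicle libraries were closer together.

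Lhx1, a homeobox factor induced by GDNF, was at 1.18 and 1.13 FPKM with RA and CHX, 44.7 and 41.2 FPKM with RA, and 63.1 and 61.7 FPKM with vehicle. Its log2 fold change of -4.35 ± 0.05 (adjusted p = 2.02e-08) was the lowest value among the genes named by size. Bcl6b, another GDNF-responsive repressor, was at 8.99 and 8.79 FPKM with RA and CHX, 118 and 138 FPKM with RA, and 119.5 and 139 FPKM with vehicle. Bcl6b fell by 3.70 ± 0.09 (adjusted p = 1.74e-07), and its RA and vehicle libraries overlapped. Ret, the signalling chain of the receptor, was at 13.5 and 13.2 FPKM with RA and CHX, 64.3 and 66.5 FPKM with RA, and 126 and 124 FPKM with vehicle, a log2 fold change of -2.21 ± 0.03.

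The transcription factor genes Etv5, Id4 and Zbtb16 were already lower with RA than with vehicle, and lower again with CHX. Etv5 was at 33.1 and 35.1 FPKM with RA and CHX, 93.5 and 91.6 FPKM with RA, and 141 and 136 FPKM with vehicle. Id4 was at 6.43 and 6.11 FPKM, 16.4 and 16.2 FPKM, and 42.7 and 42.3 FPKM in the same order of groups. Zbtb16 fell by 0.97 ± 0.05 (adjusted p = 2.41e-06), to 11.1 and 10.2 FPKM with RA and CHX, against 21.4 and 22.3 FPKM with RA. The Zbtb16 call was lost in the fit of all 12 libraries (adjusted p = 0.263).

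Not every progenitor gene followed. Sox3, a factor of spermatogonia that are committed to differentiate, was at 104 and 97.3 FPKM with RA and CHX, 22.4 and 27.2 FPKM with RA, and 34.4 and 43.9 FPKM with vehicle. It rose by 1.98 ± 0.12 (adjusted p = 5.72e-06), above both other groups. The germ cell helicase gene Ddx4 rose by 0.56 and the chromatin factor gene Utf1 by 0.50, the second of which was not called in the fit of all 12 libraries (adjusted p = 0.283). Nanos2 and Neurog3 fell under the filter and were not tested, at 0.356 and 0.221 FPKM for Nanos2 with RA and CHX, against 0.507 and 0.852 FPKM with RA and 8.07 and 7.87 FPKM with vehicle.

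Feedback genes of the ERK pathway, which growth factor signalling switches on and which then damp it, were mostly lower with CHX. They fell in 15 of 16 cases, where 42.0% of all genes did, with a median of -1.24 and 9 at least 2-fold down. The 12-library fit called 11 lower. Spry4 was at 6.52 and 6.8 FPKM with RA and CHX, 36.5 and 34.2 FPKM with RA, and 54.3 and 49.6 FPKM with vehicle, a log2 fold change of -2.25 ± 0.05 (adjusted p = 1.89e-07). The phosphatase gene Dusp4 fell by 1.85 ± 0.06, to 8.76 and 8.3 FPKM with RA and CHX, against 33.7 and 32.8 FPKM with RA. Ier3 fell by 2.14 ± 0.12. The one member that rose was Lgals3, which encodes a sugar-binding protein and is named here because it stood alone, at 6.53 and 6.86 FPKM with RA and CHX, against 1.21 and 1.19 FPKM with RA.

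Targets of TGF-beta and BMP signalling fell in 9 of 14 cases and rose in 4, where 42.0% and 35.7% of all genes did, with a median of -0.42. That median was 0.02 with no filter on low genes, and the 12-library fit called 4 lower and 2 higher. Id3, an inhibitor of helix-loop-helix factors, was at 3.76 and 5.2 FPKM with RA and CHX, 39.5 and 40.3 FPKM with RA, and 80.2 and 90.3 FPKM with vehicle, a log2 fold change of -2.91 ± 0.12 (adjusted p = 8.73e-07). Skil, a repressor of TGF-beta signalling that is itself a target, rose by 1.03 ± 0.05. Notch and Wnt targets fell in 9 of 19 cases and rose in 5 (7 and 1 in the 12-library fit), and their median of -0.13 turned to 0.04 after quantile normalization. The secreted Wnt inhibitor gene Sfrp2 fell by 2.52 ± 0.07, to 8.28 and 8.84 FPKM with RA and CHX, against 57.9 and 49.8 FPKM with RA, and the receptor gene Notch1 fell by 1.27 ± 0.05.

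Hox genes, which give cells their position along the body axis, were mostly low, with 11 of 39 above the filter. Of these 11, 8 fell and 2 rose, and the 8 were all Hoxb genes, Hoxb2 to Hoxb9, each at least 2-fold lower. Hoxb6 was at 1.34 and 1.19 FPKM with RA and CHX, 28.7 and 22.7 FPKM with RA, and a mean of 18.3 FPKM with vehicle, a log2 fold change of -3.55 ± 0.11 (adjusted p = 3.58e-07). Hoxb8 fell by 3.05 ± 0.11 and Hoxb9 by 2.33 ± 0.12. The 2 members that rose, Hoxc13 and Hoxd8, stayed at or below 3.36 FPKM in every library of the comparison. Of the 28 Hox genes under it, 24 had a higher and 4 a lower mean with RA and CHX than with RA, all at 1.2 FPKM or less, and without the filter the median of the list was 0.09.

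**Figure D3:**
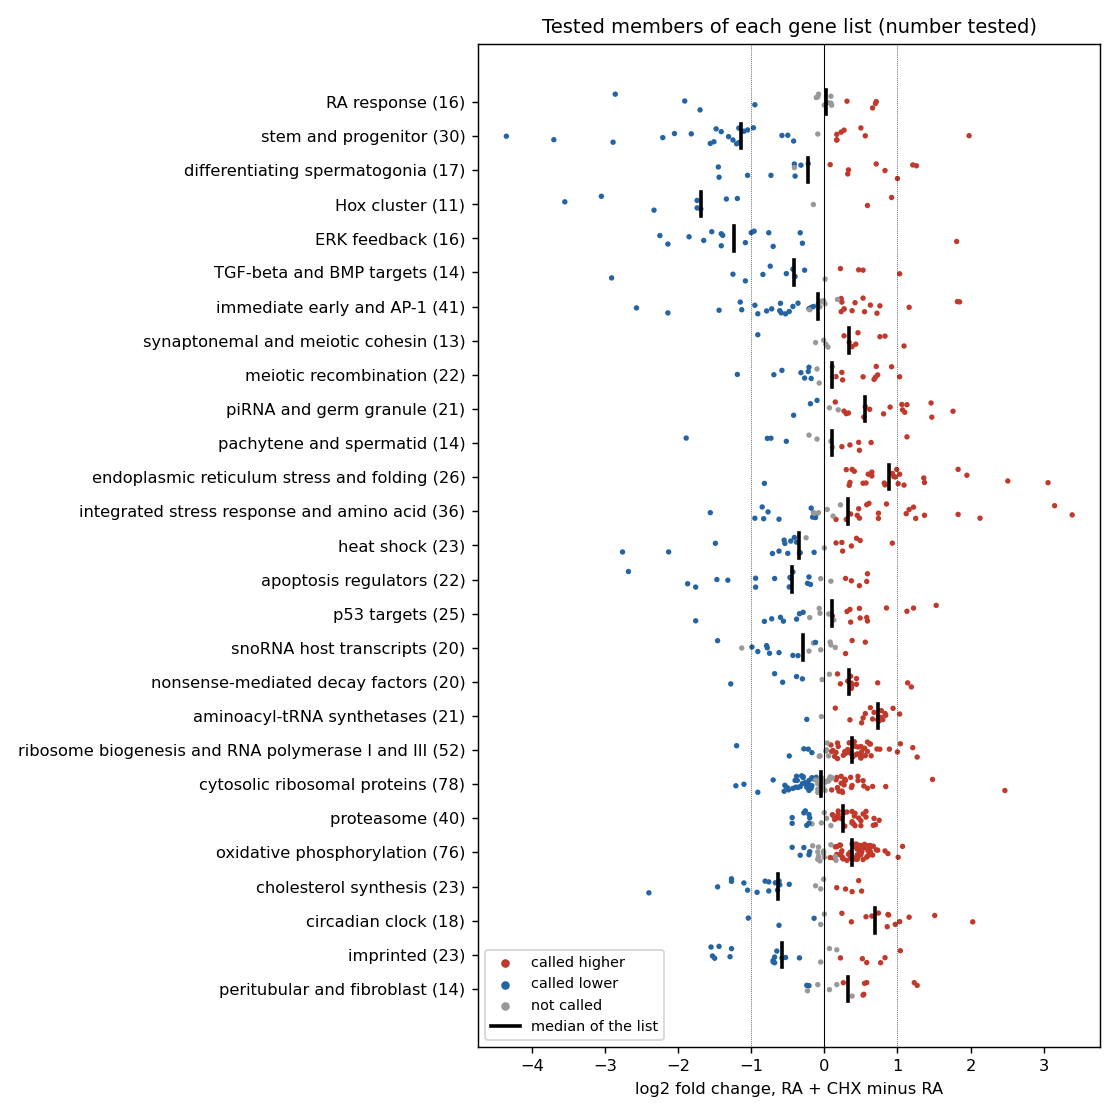
Log2 fold change of RA and CHX over RA for the tested members of 27 gene lists, 1 point per gene, red where called higher, blue where called lower and grey where not called, with a black bar at each list's median. Members of the endoplasmic reticulum list lay to the right of 0 in 25 of 26 cases and ERK feedback genes to its left in 15 of 16, whereas ribosomal protein genes had a median of -0.05.

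Meiotic and germ-line genes went in several directions. Genes of the piRNA pathway and of germ granules, which silence transposons in germ cells, rose in 16 of 21 cases and fell in 3, with a median of 0.56 and 7 at least 2-fold up. The 12-library fit called 12 higher and 0 lower. Ddx25, a germ cell RNA helicase, was at 117 and 116 FPKM with RA and CHX, 33.4 and 33.8 FPKM with RA, and 35.5 and 36.4 FPKM with vehicle, a rise of 1.76 ± 0.03 (adjusted p = 6.58e-08). Mov10l1, the helicase that starts piRNA processing, was at 221 and 219 FPKM with RA and CHX, 76.5 and 81 FPKM with RA, and 80.7 and 85.6 FPKM with vehicle. In both genes the RA and CHX libraries lay above all 4 others. Tdrd9 rose by 1.46 ± 0.06, and the Tudor gene Tdrd1 rose to 72.8 and 74.7 FPKM with RA and CHX, against 33 and 34.8 FPKM with RA, while the Tudor gene Tdrkh fell by 0.19 ± 0.03, a call lost in the fit of all 12 libraries (adjusted p = 0.402). The change of Nanos3 (-0.42) was called, but not after quantile normalization (adjusted p = 0.11), without the first RA and CHX library (0.0668) or in the fit of all 12 libraries (0.649).

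Synaptonemal complex and meiotic cohesin genes, which hold paired chromosomes together, rose in 8 of 13 cases and fell in 1, where 35.7% and 42.0% of all genes did, with a median of 0.34. In the 12-library fit 3 were higher and 1 lower. The cohesin gene Smc1b was at 181 and 214 FPKM with RA and CHX, 87.1 and 96.7 FPKM with RA, and 79.9 and 85 FPKM with vehicle, a rise of 1.09 ± 0.08 (adjusted p = 1.6e-05). Sycp3, a core protein of the chromosome axis, rose by 0.83 ± 0.07, to 155 and 164 FPKM with RA and CHX, against 85.9 and 92.3 FPKM with RA. Hormad2, an axis protein gene, was the member that fell (log2 fold change -0.91 ± 0.10). Of 22 recombination genes 10 rose and 8 fell (6 and 3 in the 12-library fit), with Tex11 up by 1.03 ± 0.04 and Psmc3ip, a partner of the strand exchange proteins, at -1.19 ± 0.03. Dmc1, the meiotic strand exchange enzyme, stood at 16.5 and 18.9 FPKM with RA and CHX, 21.7 and 22.9 FPKM with RA, and 15.8 and 17.4 FPKM with vehicle, a log2 fold change of -0.32 ± 0.07 (adjusted p = 0.00509) that was not called in the fit of all 12 libraries (0.245). Prdm9, which places meiotic breaks, did not pass the test (log2 difference 0.11), although it was called after quantile normalization (0.36, adjusted p = 0.00368).

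Hspa2, a chaperone of spermatocytes, was lower, at 4.05 and 4.03 FPKM with RA and CHX, 17.0 and 18.5 FPKM with RA, and 12.3 and 12.8 FPKM with vehicle, a log2 fold change of -1.89 ± 0.05 (adjusted p = 3.04e-07). The RA and CHX libraries lay below both other groups. Genes of differentiating spermatogonia split evenly, 8 up and 8 down of 17, where 35.7% of all genes were up and 42.0% down. The 12-library fit called 4 up and 6 down. The factor gene Sohlh1 rose by 1.26 ± 0.08, to 144 and 149.7 FPKM with RA and CHX, against 61.1 and 60 FPKM with RA, and Tex101 rose by 1.00 ± 0.04. The cyclin genes Ccnd1 and Ccnd2 fell by 1.44 ± 0.12 and 1.05 ± 0.05, and Dmrtb1, a regulator of the switch to meiosis, fell by 1.45 ± 0.07.

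Nearly every listed gene rose in one group, the genes of the endoplasmic reticulum (ER), where secreted proteins are folded. The ER stress response senses unfolded protein through IRE1 (gene Ern1), PERK and ATF6 and raises chaperones. Of 26 genes of ER stress and folding, 25 rose and 1 fell, 9 of them at least 2-fold up, with a median of 0.88, where 35.7% of all genes rose. Their summed level was 4888 and 4802 FPKM with RA and CHX, 2213 and 2221 FPKM with RA, and 2397 and 2411 FPKM with vehicle.

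Herpud1, which helps to clear misfolded ER proteins, was at 85 and 87.7 FPKM with RA and CHX, 9.49 and 9.43 FPKM with RA, and 10.4 and 11.6 FPKM with vehicle. It rose by 3.06 ± 0.05 (adjusted p = 6.68e-08). Xbp1, the transcription factor whose mRNA IRE1 splices, was at 99.5 and 97.9 FPKM with RA and CHX, 17.2 and 16.0 FPKM with RA, and 29.2 and 28.6 FPKM with vehicle, a rise of 2.51 ± 0.04. Hspa5, the main ER chaperone BiP, was at 788 and 769 FPKM with RA and CHX, 195 and 207 FPKM with RA, and 221 and 228 FPKM with vehicle, a rise of 1.95 ± 0.04 (adjusted p = 1.24e-07). In each of the 3 genes the RA and CHX libraries lay above all 4 others. Ern1 itself was the member that fell, by 0.82 ± 0.05, to 5.65 and 5.37 FPKM with RA and CHX, against 10.5 FPKM in both RA libraries.

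The ER stress element, CCAAT and CCACG with 9 bases between them, is a known binding sequence of ATF6 with NF-Y. It was searched on both strands of the 250 bases before each RefSeq start (GRCm38.p6), a choice made after the rise of these genes had been seen. The motif occurred at 37 of 32851 starts (0.113%). Of the 26 ER genes 22 were matched to the table, and 9 of those held it. The promoters of Hspa5, Hsp90b1 (the ER form of HSP90) and Creld2 (a secreted ER stress protein) are shown as examples with the match in capitals. The match in Hspa5 (chr2:34771840-34772089, plus strand) ran from 65 to 47 bases before the start and that in Creld2 (chr15:88819396-88819645, plus strand) from 126 to 108, on the opposite strand. Hsp90b1 (chr10:86705445-86705694, minus strand) held 2 matches, from 212 to 194 and, on the opposite strand, from 107 to 89 bases before the start.
Hspa5: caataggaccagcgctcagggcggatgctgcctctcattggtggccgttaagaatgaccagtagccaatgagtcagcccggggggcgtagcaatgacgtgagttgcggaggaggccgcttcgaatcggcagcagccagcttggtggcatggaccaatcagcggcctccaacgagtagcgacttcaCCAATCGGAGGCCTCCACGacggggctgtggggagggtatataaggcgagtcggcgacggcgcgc
Hsp90b1: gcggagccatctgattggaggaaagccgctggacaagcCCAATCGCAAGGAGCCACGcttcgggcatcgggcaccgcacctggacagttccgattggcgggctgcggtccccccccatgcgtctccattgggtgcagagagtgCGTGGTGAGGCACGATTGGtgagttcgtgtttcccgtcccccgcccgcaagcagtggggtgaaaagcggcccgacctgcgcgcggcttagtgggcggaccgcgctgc
Creld2: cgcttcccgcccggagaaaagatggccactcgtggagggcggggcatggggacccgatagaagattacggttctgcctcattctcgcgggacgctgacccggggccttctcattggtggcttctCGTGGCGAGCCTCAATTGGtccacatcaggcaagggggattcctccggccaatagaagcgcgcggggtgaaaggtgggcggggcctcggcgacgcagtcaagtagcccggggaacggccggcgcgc

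Hsp90b1 and Creld2 were chosen for their promoters and not by size. Hsp90b1 was at 638 and 626 FPKM with RA and CHX, against 297 FPKM in both RA libraries (log2 fold change 1.09 ± 0.03). Creld2 was at 327 and 319 FPKM with RA and CHX, against 126 and 124 FPKM with RA (1.36 ± 0.03). Of the 9797 tested genes matched to the promoter table, which are 79.7% of all tested, 21 held the element (0.214%). Of these 21, 17 rose and 3 fell, 8 were at least 2-fold up, and the median was 0.65. Over all genes 35.7% rose and 42.0% fell. Of the 21, 9 were ER list members whose rise prompted the search, so the count repeats part of that rise. The 21 included genes outside the ER list. Among these, Pan2, a subunit of an mRNA deadenylase, rose by 1.21 ± 0.03, Alg12, a mannosyltransferase of the ER, by 1.01 ± 0.05 and Tdrd9 by 1.46 ± 0.06. Pan2 and Alg12 were named after their values were seen. Xlr3a, Xlr3b and Xlr3c also held it, but they are near-identical copies whose reads may have been split, so their separate values are uncertain. The members that fell were Acacb, Adcy3 and Calr4. A match is a sequence in a window and not a shown binding site.

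**Figure D4:**
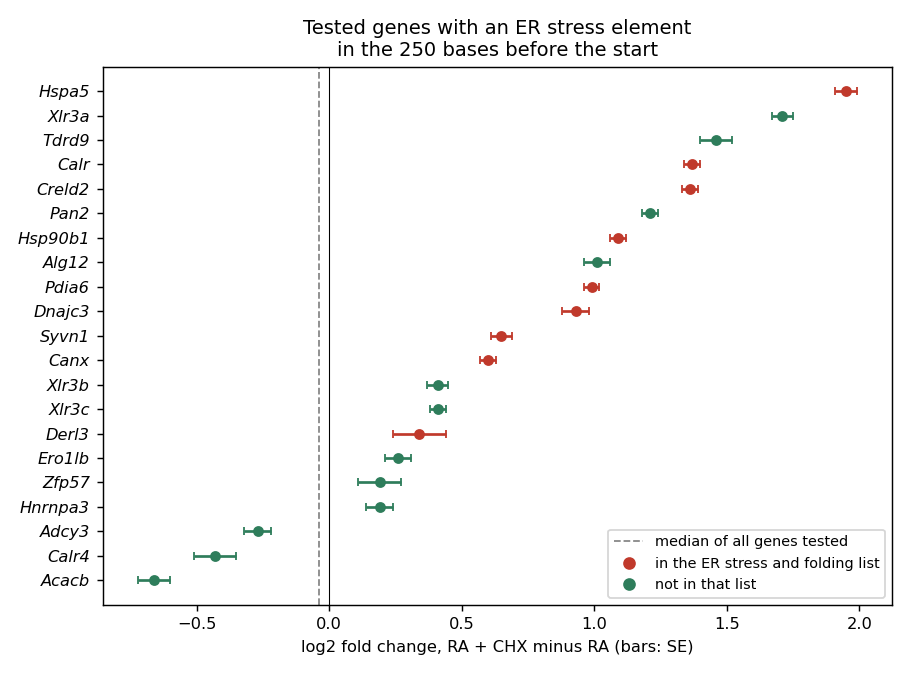
Log2 fold change of RA and CHX over RA, with its SE, of the 21 tested genes with an ER stress element in the 250 bases before the start, red for the 9 members of the ER list and green for the others. The dashed line is the median of all genes tested (-0.04), and 17 of the 21 genes were called higher, against 35.7% of all genes tested.

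Genes of the integrated stress response, in which the eIF2 kinases slow translation and the factor ATF4 is made instead, rose in 20 of 36 cases and fell in 9 (16 and 4 in the 12-library fit), with a median of 0.33. Chac1, an enzyme that degrades glutathione, was at 19.9 and 19.5 FPKM with RA and CHX, 0.895 and 1.04 FPKM with RA, and 1.25 and 1.6 FPKM with vehicle. It rose by 3.39 ± 0.08 (adjusted p = 1.94e-07), a mean 20.3 times that with RA. Ddit3, which encodes the stress factor CHOP, was at 36.5 and 38.7 FPKM with RA and CHX, 8.16 and 7.52 FPKM with RA, and 9.59 and 10.5 FPKM with vehicle, a rise of 2.13 ± 0.06. Both genes were far above the RA and vehicle libraries alike.

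Nupr1, a small stress protein of the nucleus, was at 20.1 and 19 FPKM with RA and CHX, 1.13 and 1.5 FPKM with RA, and 2.04 and 1.94 FPKM with vehicle, a rise of 3.15 ± 0.09 (adjusted p = 2.46e-07). The amino acid response motif TGATGNAAT, to which ATF4 binds, occurred at 268 of 32851 starts (0.816%) on either strand of the same window. Nupr1 and Pycr1 were the only 2 of 30 matched members of the list to hold it. The promoter of Nupr1 (chr7:126625471-126625720, minus strand) is shown because it had the largest change of the pair, and its match ran from 111 to 103 bases before the start on the opposite strand. Of the 45 tested genes with the motif, 19 rose and 15 fell, with a median of 0.12. Over all genes 35.7% rose and 42.0% fell.
Nupr1: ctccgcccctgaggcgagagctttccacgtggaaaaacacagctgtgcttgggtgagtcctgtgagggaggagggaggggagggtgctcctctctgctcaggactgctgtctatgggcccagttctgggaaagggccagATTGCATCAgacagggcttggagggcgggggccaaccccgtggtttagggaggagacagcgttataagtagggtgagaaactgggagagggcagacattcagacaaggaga

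Atf4 mRNA itself was at 191 and 195 FPKM with RA and CHX, 88.4 and 87.6 FPKM with RA, and 105 and 108 FPKM with vehicle, a rise of 1.12 ± 0.03 (adjusted p = 2.31e-07). Atf3, a related repressor, rose by 1.16 ± 0.09 but reached only 3.21 and 2.86 FPKM. Members that fell included Cth, which makes cysteine (log2 fold change -1.56 ± 0.07), the phosphatase subunit gene Ppp1r15b (-0.95 ± 0.03) and the eIF2 kinase gene Eif2ak4 (-0.85 ± 0.06). The 19 of 21 tRNA synthetase genes that rose, with a median of 0.73, included Aars (1.03 ± 0.03), Nars (0.94 ± 0.03) and Yars (0.84 ± 0.04), and Hars fell by 0.24 ± 0.03. The aminoacyl-tRNA synthetases load amino acids on tRNA and are partly ATF4 targets.

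Heat shock and chaperone genes of the cytosol and mitochondria were called lower in 14 of 23 cases and higher in 7, where 42.0% and 35.7% of all genes were, with a median of -0.34. In the 12-library fit 6 were lower and 4 higher. Hspa8, the constitutive HSP70 that folds newly made protein, was at 263 and 240.1 FPKM with RA and CHX, 1716 and 1697 FPKM with RA, and 2052 and 1973 FPKM with vehicle. It fell by 2.76 ± 0.05 (adjusted p = 1.1e-07), among the largest falls of any abundant gene named here. Hspa1b, the inducible HSP70, fell by 2.13 ± 0.07, to 3.32 and 2.82 FPKM with RA and CHX, against 17.2 and 16.3 FPKM with RA, a call lost in the fit of all 12 libraries (adjusted p = 0.216). Hspa1b has a near-identical copy and its level is uncertain. The mitochondrial chaperone genes Hspa9 and Hspd1 rose by 0.93 ± 0.03 and 0.44 ± 0.04.

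Regulators of apoptosis fell in 15 of 22 cases and rose in 5 (10 and 3 in the 12-library fit), where 42.0% and 35.7% of all genes did. Their median was -0.45. The members with the largest falls among those named were the death-promoting genes Bik (log2 fold change -2.68 ± 0.06) and Pmaip1 (-1.76 ± 0.11), with Bik at 2.95 and 3.3 FPKM with RA and CHX, against 25.1 and 25.6 FPKM with RA. Bcl2l11, also death-promoting, fell by 1.47 ± 0.06, and Bax, which opens the mitochondrial membrane, rose by 0.58 ± 0.04. Mcl1, a short-lived survival protein gene, did not pass the test, at 48.4 and 46.3 FPKM with RA and CHX, against 48.7 and 49.4 FPKM with RA, and was called lower after quantile normalization (log2 difference -0.14, adjusted p = 0.00768). Targets of p53 were 12 up and 8 down of 25, where 35.7% of all genes were up and 42.0% down, and 5 up and 5 down in the 12-library fit. The cell cycle inhibitor gene Cdkn1a rose by 1.53 ± 0.05, to 33.2 and 35.3 FPKM with RA and CHX, against 10.7 and 11.7 FPKM with RA, and Mdm2, the p53 ligase, by 0.36 ± 0.03, the second of which was not called in the fit of all 12 libraries (adjusted p = 0.343).

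Immediate early genes respond to signals without new protein and are a known class raised by CHX in many cells. Here 14 of 41 rose and 19 fell, near the 35.7% and 42.0% of all genes, and the median of -0.09 turned to 0.06 after quantile normalization. The larger changes went both ways, with 3 called at least 2-fold higher and 5 at least 2-fold lower (2.81% and 6.95% of all genes). Log2 fold changes in the list ran from -2.57 to 1.85. The 12-library fit called 5 higher and 4 lower. Fos, the founding member, was at 9.42 and 9.82 FPKM with RA and CHX, 10 and 9.85 FPKM with RA, and 7.69 and 7.68 FPKM with vehicle (log2 difference -0.04, adjusted p = 0.414, and 0.15 with an adjusted p of 0.0181 after quantile normalization). Jun rose by 0.55 ± 0.08 and Egr1 by 0.38 ± 0.04, neither of which was called in the fit of all 12 libraries. Mycn fell by 2.57 ± 0.08, to 2.54 and 2.47 FPKM with RA and CHX, against 21.7 and 18.0 FPKM with RA and 41.5 and 41.1 FPKM with vehicle. Myc was under the filter, at 1.66 and 1.24 FPKM with RA and CHX, against 0.291 and 0.189 FPKM with RA. The adjusted p of Jun and Egr1 in that fit was 0.429 and 0.482. Of NF-kB targets and chemokines 9 of 22 rose, near the 35.7% of all genes, and 6 fell. The counts were 13 and 5 after quantile normalization and turned to 3 higher and 4 lower in the 12-library fit. Of the 22, 5 were called at least 2-fold higher and 1 at least 2-fold lower, where 2.81% and 6.95% of all genes were. In the 12-library fit these 2-fold counts were 2 and 1.

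Noncoding host transcripts of small nucleolar RNAs are a class whose decay depends on translation in many cells. The list used here also holds protein-coding hosts, so its counts are not those of the noncoding class alone. In these libraries 10 of 20 fell, 3 rose and 7 did not pass the test, where 42.0% of all genes fell and 35.7% rose. The 3 that rose, Nop56 (log2 fold change 0.56), Rc3h2 (0.38) and Dkc1 (0.29), were all protein-coding. The median of the list was -0.28, and the 12-library fit called 6 lower and 2 higher. Gas5 was at 7.12 and 7.77 FPKM with RA and CHX, 16.2 and 15.3 FPKM with RA, and 17.3 and 17.5 FPKM with vehicle, a log2 fold change of -0.99 ± 0.05 (adjusted p = 3.21e-06). Snhg5 fell by 1.46 ± 0.06, Snhg4 by 0.91 ± 0.07 and Snhg1 by 0.62 ± 0.03. Genes hosting small RNAs overlap them, and small RNA genes took 5.07% and 5.84% of the FPKM sum with RA and CHX, against 8.31% and 7.37% with RA. The part of that shift in the values of the hosts was not tested.

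Factors of nonsense-mediated decay, which destroys mRNAs with early stops during translation, rose in 13 of 20 cases and fell in 5, with a median of 0.34. Over all genes 35.7% rose and 42.0% fell. The helicase gene Upf1 was at 102 and 104 FPKM with RA and CHX, 61.8 and 61.5 FPKM with RA, and 68.3 and 68.2 FPKM with vehicle, a rise of 0.73 ± 0.03. Smg5 rose by 1.19 ± 0.05 and Upf2 by 1.14 ± 0.04, while Upf3b fell by 1.28 ± 0.05. SR and other splicing factor genes split 13 up and 11 down of 31, a split that turned to 7 up and 17 down after quantile normalization and to 5 up and 7 down in the 12-library fit.

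Genes of the translation machinery were mostly higher, apart from the ribosomal proteins. Ribosome biogenesis genes rose in 41 of 52 cases and fell in 5 (median 0.38, and 27 and 2 in the 12-library fit), with Nop14 up by 1.27 ± 0.03 and Gnl3 by 1.21 ± 0.03. Translation factor genes rose in 31 of 46 cases and fell in 9 (median 0.32), and the largest fall was that of Eif5, which guides start codon choice, to 42.2 and 42.4 FPKM with RA and CHX, against 139 and 141 FPKM with RA. Cytosolic ribosomal protein genes were 26 up and 33 down of 78, close to the shares over all genes, with a median of -0.05 and few large changes. Of these, 8 were higher and 7 lower in the 12-library fit. Rpl26 rose by 1.48 ± 0.06 and Rps12 fell by 1.21 ± 0.06, to 501 and 535 FPKM with RA and CHX, against 1199 and 1201 FPKM with RA. Rps27 was at 3.92 and 37.8 FPKM in the 2 RA libraries, so its rise of 2.47 ± 0.83 is uncertain and was not called without either RA and CHX library (adjusted p = 0.0556 and 0.119), and many ribosomal protein genes have processed copies that could share their reads.

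Proteasome genes, for the complex that degrades tagged proteins, rose in 27 of 40 cases and fell in 8 (median 0.25), and oxidative phosphorylation genes, for the mitochondrial respiratory chain, rose in 58 of 76 and fell in 5 (median 0.38). Quantile normalization left both medians positive, at 0.07 and 0.21, and raised the members that fell to 13 and 17. The 12-library fit called 18 proteasome genes and 46 oxidative phosphorylation genes higher. The complex III core gene Uqcrc1 rose by 1.07 ± 0.04, to 210.5 and 215 FPKM with RA and CHX, against 104 and 97.7 FPKM with RA. Psmd13, a proteasome lid subunit gene, rose by 0.75 ± 0.03. Autophagy and lysosome genes were 17 up and 7 down of 29, and the lysosomal hexosaminidase gene Hexa rose by 1.97 ± 0.06, to 114 and 115 FPKM with RA and CHX, against 28.8 and 28.1 FPKM with RA.

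Genes of the cholesterol synthesis list, which are switched together by SREBP factors, fell in 15 of 23 cases and rose in 5 (15 and 1 in the 12-library fit), with a median of -0.64. Insig1, the ER anchor that holds SREBP back, was at 81.7 and 81.1 FPKM with RA and CHX, 218 and 233 FPKM with RA, and 242 and 252 FPKM with vehicle, and fell by 1.46 ± 0.04 on the log2 scale (adjusted p = 2.83e-07). Glycolysis genes were 7 up and 13 down of 23 (2 and 7 in the 12-library fit), where 35.7% and 42.0% of all genes were. The lactate dehydrogenase gene Ldha was up by 1.15 ± 0.03 and Tpi1 was at -1.34 ± 0.06. Circadian clock genes rose in 13 of 18 cases and fell in 3 (median 0.69, and 8 and 2 in the 12-library fit), and the clock repressor gene Nr1d1 was at 65.2 and 66.3 FPKM with RA and CHX, 14.5 and 16.2 FPKM with RA, and 27.6 and 32.8 FPKM with vehicle, a rise of 2.03 ± 0.08.

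Genes of cell division were described by 2 lists. Of 39 DNA replication genes 11 rose and 19 fell (5 and 11 in the 12-library fit), with a median of -0.07. Of 33 genes of mitosis and the spindle 9 rose and 16 fell (3 and 9 in the 12-library fit), with a median of -0.13. Over all genes 35.7% rose and 42.0% fell, with a median of -0.04. Rrm2, which makes DNA precursors, fell by 1.69 ± 0.04, to 20.3 and 19.5 FPKM with RA and CHX, against 65.6 and 67 FPKM with RA, and the helicase gene Mcm2 rose by 0.51 ± 0.03. Uhrf1, which guides maintenance of DNA methylation, fell by 1.37 ± 0.04, to 106 and 107 FPKM, against 267 and 289.7 FPKM with RA, and the demethylating enzyme gene Tet3 rose to 17.7 and 17.3 FPKM, against 7.71 and 7.6 FPKM with RA. Mga, part of a complex that represses meiotic genes in stem cells, rose by 1.11 ± 0.04. Imprinted genes fell in 14 of 23 cases and rose in 6 (median -0.58), among them the growth factor gene Igf2, at 20.9 and 20.6 FPKM with RA and CHX, against 60.4 and 63.4 FPKM with RA (a log2 fold change of -1.53 ± 0.04).

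The highest rises named by size also included genes outside the stress lists. Spp1, the matrix protein osteopontin, was at 213 and 212 FPKM with RA and CHX, 21.9 and 28.7 FPKM with RA, and 14.9 and 22.1 FPKM with vehicle, a rise of 3.04 ± 0.18 (adjusted p = 4.52e-06). Il1rl1, a receptor of the interleukin family, was at 17.4 and 18 FPKM with RA and CHX, 0.781 and 0.818 FPKM with RA, and 0.942 and 0.826 FPKM with vehicle. The metal-binding protein gene Mt1 was at 1083 and 1181 FPKM with RA and CHX, 218 and 269 FPKM with RA, and 287 and 396 FPKM with vehicle. In all 3 genes the RA and CHX libraries stood apart from the rest. The rises of Fabp3, a fatty acid carrier (2.87 ± 0.15), Timp1, a protease inhibitor (2.51 ± 0.07), Csf1, a macrophage growth factor (2.51 ± 0.10), and Plin2, which coats lipid droplets (2.31 ± 0.08), completed the higher genes named by size.

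Markers of the somatic cells that a testis culture could hold were checked, and some moved with CHX. Of 14 tested markers of peritubular cells and fibroblasts 7 rose and 2 fell (2 and 0 in the 12-library fit), and the summed level of that list was 232 and 225 FPKM with RA and CHX, against 171 and 153 FPKM with RA and 176 and 154 FPKM with vehicle. Vim, an intermediate filament gene, rose by 1.27 ± 0.10 and the smooth muscle gene Tagln by 1.23 ± 0.23, while the collagen gene Col1a1 fell by 0.21 ± 0.05, a call lost without the second RA and CHX library (adjusted p = 0.0551) and in the fit of all 12 (0.402). Sertoli markers summed to 42.2 and 44.8 FPKM with RA and CHX, against 56.8 and 51.4 FPKM with RA, with 4 of 13 above the filter. Of these 4, 1 was called higher, at least 2-fold, and 2 lower, where 35.7% and 42.0% of all genes were. Most of the sum came from the iron carrier gene Trf, at 28.2 and 29.6 FPKM with RA and CHX, against 42.5 and 37.8 FPKM with RA. The call of Trf as lower was lost in the fit of all 12 libraries (adjusted p = 0.31). The Sertoli marker Fshr was listed at 0 in all 6 libraries, but a 0 in these files can be a failed estimate, since the widely expressed gene Hmgcs1 was also listed at 0 in all 6. Macrophage markers summed to 8.76 and 8.54 FPKM, against 4.86 and 5.4 FPKM with RA, nearly all of it Cd68, with C1qa and C1qb listed at 0. Leydig markers summed to 2.04 and 2.46 FPKM, against 1.86 and 1.98 FPKM with RA, and endothelial markers to 3.73 and 4.0 FPKM, against 6.34 and 6.84 FPKM with RA. The part of these shifts in the rises of Spp1, Il1rl1, Timp1 and Csf1 was not tested.

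The lowest values named by size beyond the stem cell and Hox genes belonged to several neuronal and signalling genes. Nxph4, a neurexophilin, was at 0.38 and 0.447 FPKM with RA and CHX, 19.3 and 15.1 FPKM with RA, and 30.1 and 23.3 FPKM with vehicle, a log2 fold change of -3.68 ± 0.14. Fev, an ETS factor of serotonin neurons, was at 0.281 and 0.196 FPKM with RA and CHX, against 13.2 and 11.4 FPKM with RA, a log2 fold change of -3.42 ± 0.08. Nefm, a neurofilament gene, was at 2.87 and 2.86 FPKM with RA and CHX, 40 and 29.1 FPKM with RA, and 147 and 122 FPKM with vehicle. Crmp1, the kinase gene Mapk11, the cadherin gene Cdh3 and the heparan sulfate sulfotransferase gene Hs3st3b1 had log2 fold changes of -3.31, -3.26, -3.21 and -3.32. Of 14 tested genes of the neuronal list 10 fell and 3 rose (7 and 3 in the 12-library fit), where 42.0% and 35.7% of all genes did. The median of that list was -0.43. The pseudogene Pisd-ps1 was also named by size, but its libraries varied widely (0.932 and 0.116 FPKM with RA and CHX, 15.9 and 14.1 FPKM with RA, 0.00195 and 22.7 FPKM with vehicle), and its call was lost in 8 of the alternatives tried.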

How the data were processed

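RNA-seq libraries of cultured mouse spermatogonial stem cells were compared, 2 given RA and CHX against 2 given RA, with 2 vehicle libraries for orientation. The authors deposited 1 FPKM value per gene and library; TopHat2 2.0.6, Cuffdiff and the mm9 build are named per the submitters' processing notes, while Cuffdiff's version, options and strand setting were not given in the sources used here. FPKM gives no counts, so no count test was used.

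Copies of a symbol were summed, 25 lines that 1 vehicle file repeats were counted once, and genes averaging 1 FPKM or more over the 4 libraries were kept (Nkapl was just inside at 1.0008 and Asprv1 just outside at 0.9994). log2(FPKM + 1) values, with a pseudocount of 1, were fitted with limma 3.58.1 in R 4.3.3 on the 6 treatment libraries, with trended empirical Bayes and Benjamini-Hochberg adjustment over all 12292 genes. A call is an adjusted p under 0.05. Relative depth, read from the steps of low values, lay between 84.1% and 100% of the first vehicle library. On simulated data of 12148 genes, the test recovered 100 of 100 changed by 1 and 100 of 100 changed by 2 (log2 scale). Of its 207 calls, 7 were false. The changed genes were drawn only from levels well above the filter of 1 FPKM. Recovery at lower levels or of smaller differences was not tested, nor was a set in which most genes differ. In the comparison itself 77.6% of genes were called, and the median absolute log2 fold change of called genes was 0.45.

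The members and lists were chosen with earlier results of these data known. Genes named are the called genes with the 12 most positive and 12 most negative changes that averaged 5 FPKM or more and whose groups did not overlap, leaving out small RNA genes and unnamed gene models, up to 3 higher and 3 lower called members of each list at that level, and a fixed set. Outside that rule, Cyp26b1, Rxrg, Rara, Rarg, Hoxc13, Hoxd8, Xlr3b, Xlr3c, Acacb, Adcy3, Calr4, Pycr1 and those so described in the text were chosen after their values were seen. Motifs were read from RefSeq promoters of another build (GRCm38.p6), matched by symbol. Same-numbered libraries did not deviate together (r = -0.03 for RA and CHX with RA, 0.09 for RA and CHX with vehicle, 0.01 for RA with vehicle). Alternatives covered the pseudocount, filter, scaling, small RNA genes, repeated lines, the libraries fitted, the replicate block and leaving out each library. Besides the repeated lines, no symbol had copies to choose between. Figures used Python 3.11.15 with matplotlib 3.10.9, pandas 2.3.3 and numpy 2.4.6. 1 gene that the rule names is not reported here.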

Additional observations from a re-analysis of the deposited data

How the results depend on the processing

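The counts of calls stayed within 1.5 times the reported ones under the pseudocounts, filters, scalings and left-out libraries tried, with 1778 and 1475 2-fold calls at pseudocounts of 0.1 and 0.5. When the spread came from all 12 libraries, 5825 genes were called, 2594 higher and 3231 lower; the cause was not tested. The counts of that fit stand beside many of the gene lists. It called 23 ER genes higher and 1 lower, 18 and 1 tRNA synthetase genes, and 26 and 7 translation factor genes. For nonsense-mediated decay the counts were 11 and 4, for autophagy and lysosome genes 12 and 6, and for Hox genes 2 and 8. They were 4 and 10 for imprinted, 10 and 0 for histone, and 8 and 10 for Polycomb and Max genes. Ubiquitin genes and ligases had 3 and 3, and polyamine genes 2 and 3. Leaving out 1 library gave 8674 to 9552 calls, 3845 to 4387 higher and 4718 to 5165 lower, and 1199 to 1238 2-fold calls, 339 to 364 higher and 835 to 899 lower.

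With the replicate number as a block, 9634 genes were called, 4418 higher and 5216 lower, with 1202 at least 2-fold. The numbers did not pair the samples.

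Some values changed sign. Quantile normalization gave Fos 0.15 (adjusted p = 0.0181), Rhox4a 0.03 and the Notch and Wnt median 0.04. Without a filter the TGF-beta and BMP median was 0.02 and the Hox median 0.09, and with a mean of at least 5 FPKM the glutathione median was 0.08. The cause was not tested. FPKM carries no counting error, and 2 libraries a group limit the estimate of spread.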

Other observations

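Counts for gene groups not described above follow, to be read against the 35.7% of all genes that rose and the 42.0% that fell. Germline genes that DNA methylation keeps silent elsewhere in the body rose in 18 of 25 cases and fell in 5, with a median log2 fold change of 0.33, and the 12-library fit called 11 higher and 1 lower. Genes of glutathione and xenobiotic metabolism fell in 13 of 23 cases and rose in 9 (7 and 5 in the 12-library fit), with Mt1 the highest at 2.22. Rhox homeobox genes of the X chromosome, several of them near-identical copies, rose in 12 of 23 cases and fell in 3, but the fit of all 12 libraries called 1 higher and 0 lower.

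Of 45 tested replication-dependent histone genes, whose copies can share reads, 11 rose and 5 fell, both smaller shares than over all genes, with a median of 0.13. At least 2-fold changes were called for 5 higher and 0 lower, where 2.81% and 6.95% of all genes had them. After quantile normalization these were 8 and 0. Polycomb and Max repressor genes split 11 up and 15 down of 32, and ubiquitin genes and ligases of short-lived proteins 8 up and 8 down of 23, shares near those of all genes. The Polycomb split turned to 15 up and 11 down after quantile normalization. Polyamine genes were 3 up and 5 down of 12, with the antizyme gene Oaz1, which directs ornithine decarboxylase to the proteasome, at a log2 fold change of -1.32 and Odc1, the decarboxylase itself, at 0.85.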
